A study of Mus musculus with 8 samples.

Results

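Apolipoproteins and the genes of lipid efflux were read in microglia, the brain's own macrophages, sorted by flow cytometry from optic nerves of C57BL/6 mice aged 3 months. The FFC mice carry Nf1 flox/flox together with GFAP-Cre, so that the GFAP promoter drives recombination of Nf1 in astrocytes. The controls, FF, carry Nf1 flox/flox and no Cre, so both groups share the floxed alleles. Each genotype gave 4 libraries, from 2 females and 2 males. The labels number them as biological replicates and do not say whether a library came from 1 animal or several, so p-values measure only the spread between these libraries. The 10 genes described are Apoe, Apoc1, Apoc2, Apoc4, Lpl, Abca1, Abcg1, Nr1h2, Nr1h3 and Pltp, picked by gene name from the 37447 rows of the deposited table. They were listed with the FFC and FF values already known, among which Apoc1 stood out, so the genotype values below are a description without a test. All 10 had a value in every library, and 9 passed the filter on low values (mean FPKM of 1 or more); Apoc4 did not.

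Apolipoproteins coat lipid particles and carry cholesterol and phospholipid between cells. In the brain, Apoe is the main carrier, known to be made by astrocytes and by activated microglia. Macrophages load it through the transporters Abca1 and Abcg1, and the liver X receptors, sterol-sensing nuclear receptors encoded by Nr1h3 (LXR alpha) and Nr1h2 (LXR beta), are known to switch on the transporters, Pltp, Lpl and the Apoe cluster. Apoc2 is the activating cofactor of lipoprotein lipase (Lpl), Apoc1 an inhibitor of it, and Pltp moves phospholipid between lipoproteins.

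Apoe, Apoc1, Apoc4 and Apoc2 lie in this order on chromosome 7 within 27588 bases of mm9 (20256928 to 20284515), all on the minus strand. The gap from Apoe to Apoc1 is 3450 bases and that from Apoc1 to Apoc4 is 8067 bases. The row for Apoc2 spans 9845 bases and contains the whole Apoc4 row of 3323 bases, so reads in that stretch cannot be assigned to one of them with certainty. Of the 10 genes, 7 had a RefSeq promoter window (GRCm38.p6, 250 bases before to 50 after a start site), 10 windows in all. The 3 below show the first Apoe window and those of Apoc4 and Apoc2, and the 4th shows Abca1, the transporter that feeds Apoe. They read 5′ to 3′ on the gene's strand, with capitals marking the nuclear receptor half-site AGGTCA or the TATAAA box.
Apoe, chr7:19699139-19699438, minus strand: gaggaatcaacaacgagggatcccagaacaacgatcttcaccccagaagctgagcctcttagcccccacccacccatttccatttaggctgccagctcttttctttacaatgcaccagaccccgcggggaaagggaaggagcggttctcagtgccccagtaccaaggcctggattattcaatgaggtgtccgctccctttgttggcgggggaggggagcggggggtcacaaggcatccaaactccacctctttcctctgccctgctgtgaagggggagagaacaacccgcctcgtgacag
Apoc4, chr7:19681411-19681710, minus strand: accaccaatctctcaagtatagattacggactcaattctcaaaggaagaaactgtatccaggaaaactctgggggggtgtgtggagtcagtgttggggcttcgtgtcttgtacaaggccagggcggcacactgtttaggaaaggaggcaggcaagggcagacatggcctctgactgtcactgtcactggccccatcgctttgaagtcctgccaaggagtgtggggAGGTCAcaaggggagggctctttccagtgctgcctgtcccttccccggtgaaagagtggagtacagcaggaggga
Apoc2, chr7:19677892-19678191, minus strand: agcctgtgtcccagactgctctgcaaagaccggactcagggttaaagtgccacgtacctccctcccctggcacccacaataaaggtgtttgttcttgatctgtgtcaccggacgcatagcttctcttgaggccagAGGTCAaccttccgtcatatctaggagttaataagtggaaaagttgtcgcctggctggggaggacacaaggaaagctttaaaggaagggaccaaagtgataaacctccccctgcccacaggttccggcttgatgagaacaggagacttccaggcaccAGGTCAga
Abca1, chr4:53159846-53160145, minus strand: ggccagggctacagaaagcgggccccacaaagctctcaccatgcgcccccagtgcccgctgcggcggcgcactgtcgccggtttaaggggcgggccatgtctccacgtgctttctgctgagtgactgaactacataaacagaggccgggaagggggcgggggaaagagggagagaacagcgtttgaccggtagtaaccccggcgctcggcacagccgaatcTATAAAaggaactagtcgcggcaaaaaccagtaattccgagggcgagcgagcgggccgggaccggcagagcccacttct

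The half-site AGGTCA was found on the plus strand of the window, 2 times in Apoc2 (first bases at -115 and 43 from the start site) and 1 time in Apoc4 (at -25). It occurred on either strand in 16.3% of all 32851 windows. A direct repeat of it spaced by 4 bases, the arrangement known for liver X receptors, was in 0 of the 10 windows and in 0.0152% of all. TATAAA was in Abca1 (at -29), in Pltp (at 37) and in the second Apoe window (at -100 and -96, on opposite strands and overlapping), against 13.6% of all windows. The PU.1 core GAGGAAGT was in 0 of the 10 and in 3.20% of all. These matches say only which letters the windows hold.

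The 8 libraries differed widely. Levels of Nf1 itself are no check of the labels, since recombination is aimed at astrocytes and the sorted cells are microglia. The summed FPKM of a library ranged between 370977 and 704266, and the depth behind a value is unknown because the table holds no counts. FF 2 and FF 4 had the lowest median Spearman correlation with the other libraries (0.398 and 0.464, against 0.507 to 0.597 in the other 6) and the smallest sums. The summed FPKM of 10 microglia markers was 5033 to 9339 in FFC and 1862 to 6986 in FF, with the lowest sums in FF 2 (1862) and FF 4 (3671). The Y-linked gene Eif2s3y had 17.2 to 113 FPKM in the libraries labelled male and 0 to 1.92 in those labelled female, highest in FF 1. Ddx3y, also Y-linked, had 8.89 FPKM in the female FF 1, where Kdm5d, another Y-linked gene, was at 0. Xist, an RNA of female cells, had 14.6 and 1.36 FPKM in the female FFC 1 and FFC 4, and 1.07 and 7.50 in the female FF 1 and FF 4. In the libraries labelled male it had 0.0940 to 0.205 FPKM. In total 113 of 2963 genes with a median of at least 20 FPKM are listed at 0 in some library, so a 0 can be a failed estimate. Of 17753 genes tested over the whole table, 0 passed limma's genotype test (0%; smallest adjusted p = 0.382), with 1146 at an unadjusted p under 0.05. Cell number and RNA per cell cannot be told apart in such bulk values.

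Apoe (ENSMUSG00000002985, chromosome 7, 20281458 to 20284515) was by far the most abundant of the 10 and ranked between the 3rd and the 63rd place among all genes of a library. It had 3216, 2096, 1512 and 6374 FPKM in FFC 1 to FFC 4, against 3805, 774, 2467 and 1203 FPKM in FF 1 to FF 4. FFC 4 was highest and FF 2 lowest, and the groups overlapped. The mean was 3299 ± 2168 FPKM in FFC and 2062 ± 1366 in FF (SD, n = 4 each), a difference of 0.72 ± 0.56 (SE) in mean log2(FPKM + 1). Without FF 2 and FF 4 that difference was -0.11. Apoe held 0.269% to 0.970% of all FPKM in FFC and 0.196% to 0.540% in FF. Set against the summed microglia markers, it amounted to 63.2%, 37.7%, 30.0% and 68.2% in FFC and to 55.6%, 41.6%, 35.3% and 32.8% in FF, again with overlap.

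Since astrocytes are known to express Apoe, their markers are given beside it. The sum of 10 astrocyte markers was 90.9 to 189 FPKM in FFC and 54.4 to 207 in FF, with the glutamate transporter Slc1a3 the most abundant of them (mean over the 8 libraries 130 FPKM). The means of the other 9 were 7.54 FPKM for Atp1b2, 3.74 for Slc1a2, 2.46 for Aldh1l1, 1.45 for Gjb6, 1.25 for Gja1, 0.386 for Aldoc, 0.335 for Aqp4, 0.242 for Gfap and 0.0875 for S100b. In FF 2 the sum of 143 FPKM held 62.6 FPKM of Slc1a3, 49.4 of Atp1b2 and 24.1 of Slc1a2. The part of astrocyte RNA in the Apoe values was not tested.

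Apoc1 (ENSMUSG00000040564, chromosome 7, 20274833 to 20278007) was the 1 member whose groups did not overlap. It had 235, 53.7, 31.0 and 42.1 FPKM in FFC 1 to FFC 4, against 7.11, 1.70, 0 and 6.41 FPKM in FF 1 to FF 4, where FF 3 is listed at 0. All FFC libraries were above all FF libraries, as for 3.05% of tested genes, while 1.29% had all FFC libraries below; since this contrast was known when the genes were listed, the count of 1 is not read further. The difference of mean log2(FPKM + 1) was 4.19 ± 0.89 (SE), at 3.57 without FFC 1, the highest library, and 4.51 without FF 2 and FF 4. As a share of Apoe in the same library, Apoc1 stood at 7.32%, 2.56%, 2.05% and 0.661% in FFC and at 0.187%, 0.219%, 0% and 0.533% in FF. The lowest of these shares in FFC (FFC 4, the library with most Apoe) exceeded the highest in FF by less than the spread within FFC.

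Apoc2 (ENSMUSG00000002992, chromosome 7, 20256928 to 20266772) was low. Its level was 17.9, 4.66, 9.40 and 1.63 FPKM in FFC 1 to FFC 4, against 3.48 FPKM in FF 1 and a listed 0 in the other 3 FF libraries. FFC 4 lay below FF 1, so the groups overlapped. Their log2 difference was 2.34 ± 0.91 (SE), 4.64 with a pseudocount of 0.1 and 1.08 with one of 5. Apoc4 (ENSMUSG00000074336, chromosome 7, 20263443 to 20266765), whose row lies inside that of Apoc2, was practically unmeasured. It had 0.681 FPKM in FFC 3 and 2.51e-05 in FFC 4, against 5.52e-29 in FF 1, and is listed at 0 in the other 5 libraries.

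**Figure D1:**
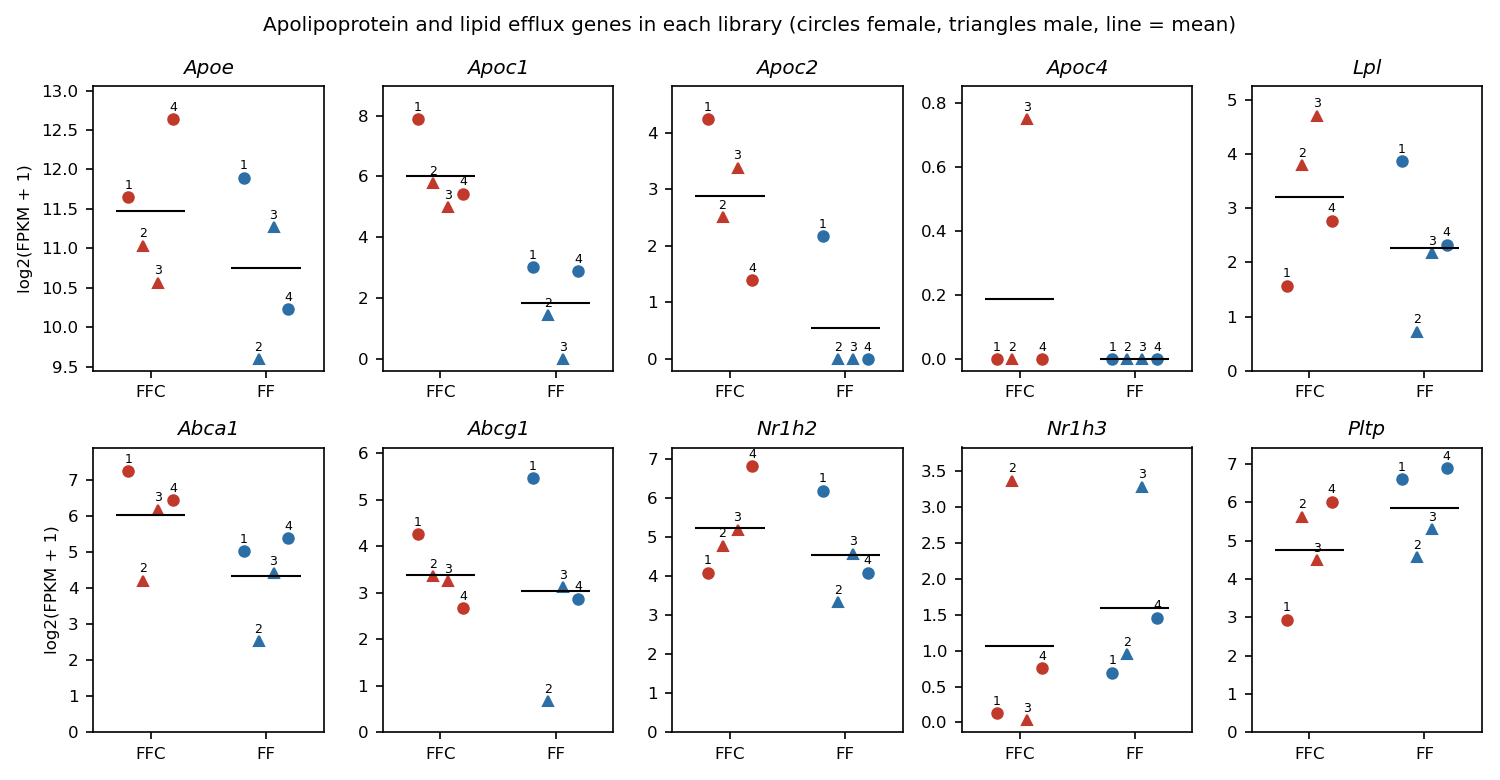
Level of each of the 10 genes as log2(FPKM + 1) in the 4 FFC libraries (left) and the 4 FF libraries (right); numbers are replicates, circles females, triangles males and lines group means, and each panel has its own scale. Apoc1 is the panel without overlap, with 31.0 to 235 FPKM in FFC and 0 to 7.11 in FF.

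The neighbours of the cluster were read in the same way. Within 100 kb on either side the table has 12 other genes, of which 6 were tested; 4 of these had a higher mean in FFC and 2 a lower one, with a median log2 difference of 1.25 and none without overlap. Gemin7, a component of the SMN complex, had 30.9 ± 19.0 FPKM in FFC and 10.5 ± 11.0 in FF. Clptm1 had 52.6 ± 20.0 FPKM in FFC and 22.1 ± 15.6 in FF, and Pvrl2, a nectin, 12.2 ± 9.11 in FFC and 3.79 ± 3.53 in FF (SD, n = 4 each). Gemin7, Clptm1 and Pvrl2 were each lowest in FF 2 and FF 4, which lay below every FFC library. FF 1 and FF 3 had 22.2 and 17.5 FPKM of Gemin7 and 6.43 and 7.23 of Pvrl2, within the FFC range. For Clptm1 they had 43.9 and 21.2 FPKM, with only FF 3 below every FFC library. The lowest FF values of Tomm40 were in FF 3 and FF 4 instead. The median of the neighbours without FF 2 and FF 4 was not computed. Tomm40, the mitochondrial import channel that lies 2146 bases from Apoe, had 8.41, 19.3, 14.5 and 8.80 FPKM in FFC, against 169, 5.63, 0.0265 and 0.150 FPKM in FF. The high value of Tomm40 was in FF 1, where Apoc1 was at 7.11. Relb, an NF-kB subunit, had no value in FF 1 and was left out of the tests; it had 6.25 to 19.0 FPKM in FFC and 2.09 to 4.36 in the other 3 FF libraries.

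**Figure D2:**
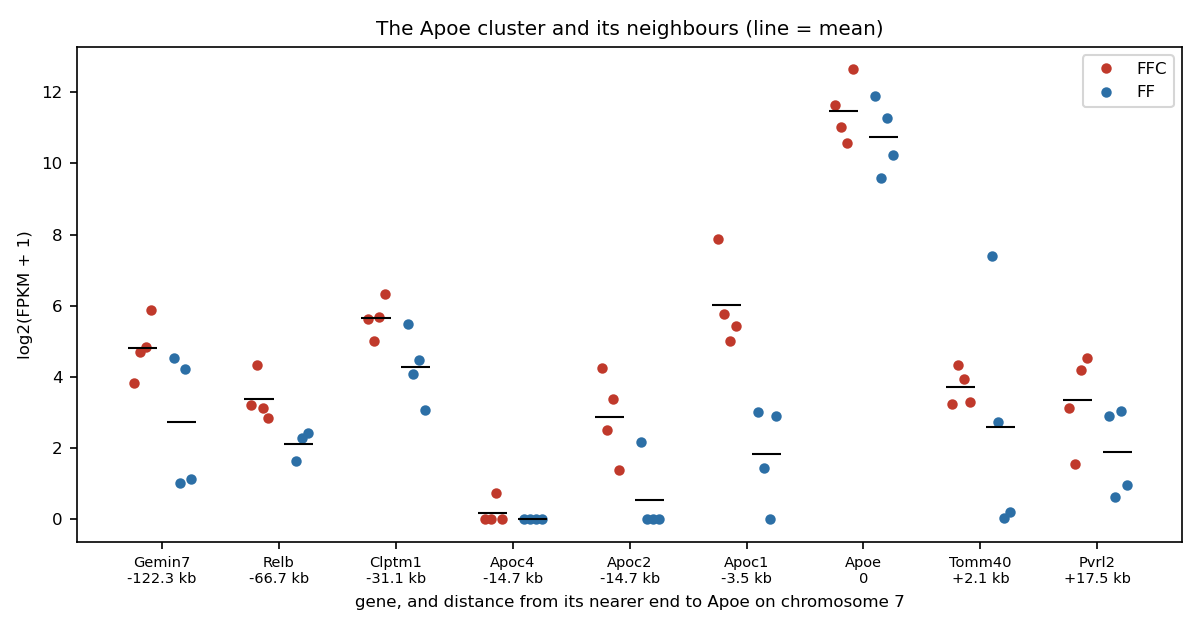
The 4 cluster genes and the 5 neighbours with a mean of at least 5 FPKM, in order along chromosome 7, as log2(FPKM + 1) in FFC (red) and FF (blue) with group means as lines; the value below each name is its distance to Apoe, and Relb has 3 FF values. Apoc1 is the gene with separate groups among those measured in all 8 libraries, and Apoe lies above all the others.

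The lipase and the cholesterol exporters overlapped between the genotypes. Lpl, which splits the triglycerides of lipoproteins (ENSMUSG00000015568, chromosome 8, 71404390 to 71431347), had 1.98, 12.9, 25.1 and 5.83 FPKM in FFC 1 to FFC 4, against 13.6, 0.653, 3.50 and 4.03 in FF 1 to FF 4. FFC 3 was highest and FF 2 lowest, and FFC 1 lay below 3 of the FF libraries. The means were 11.4 ± 10.2 FPKM in FFC and 5.44 ± 5.62 in FF (SD, n = 4 each). On the log2 scale the difference was 0.94 ± 0.93 (SE), and 0.19 without FF 2 and FF 4.

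Abca1, the pump that hands cholesterol and phospholipid to lipid-poor apolipoproteins (ENSMUSG00000015243, chromosome 4, 53043659 to 53172767), had 151, 17.6, 71.5 and 85.8 FPKM in FFC, against 31.4, 4.80, 20.4 and 41.1 in FF. FFC 1, FFC 3 and FFC 4 were above every FF library, and FFC 2 was below 3 of them. The group means were 81.6 ± 55.1 FPKM in FFC and 24.4 ± 15.6 in FF (SD, n = 4 each), 3.34 times as high, with a log2 difference of 1.68 ± 0.82 (SE) that was 1.30 without FF 2 and FF 4 and 1.08 without FF 2 alone. Abcg1, which passes cholesterol to larger particles (ENSMUSG00000024030, chromosome 17, 31194643 to 31252722), had 18.2, 9.21, 8.56 and 5.36 FPKM in FFC, against 43.1, 0.598, 7.72 and 6.33 in FF. The extremes of Abcg1 were both in FF, the highest in FF 1 and the lowest in FF 2. Its log2 difference of 0.35 ± 0.96 (SE) became -0.44 without FF 2 and -0.91 without FF 2 and FF 4, although the FPKM means were 10.3 ± 5.49 in FFC and 14.4 ± 19.4 in FF (SD, n = 4 each), opposite in sign to that difference.

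Of the 2 liver X receptors, Nr1h2 was the more abundant in every library. Nr1h2 (ENSMUSG00000060601, chromosome 7, 51804986 to 51809321) had 16.0, 26.4, 35.5 and 111 FPKM in FFC, against 71.8, 9.04, 22.8 and 15.9 in FF. Its highest library was FFC 4 and its lowest FF 2, as for Apoe, and the groups overlapped at a log2 difference of 0.67 ± 0.80 (SE; -0.16 without FF 2 and FF 4). Nr1h3 (ENSMUSG00000002108, chromosome 2, 91024218 to 91042991) had 0.0897, 9.35, 0.0191 and 0.690 FPKM in FFC, against 0.616, 0.928, 8.76 and 1.75 in FF. One library in each genotype, FFC 2 and FF 3, both from males, carried most of it. The difference was -0.53 ± 0.96 (SE), and 0.04 without FF 3. Nr1h2 exceeded Nr1h3 by between 2.60 (FF 3) and 1861 times (FFC 3).

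Pltp (ENSMUSG00000017754, chromosome 2, 164665018 to 164683211) had, like Nr1h3, a lower mean in FFC both in FPKM and on the log2 scale. It had 6.64, 48.3, 21.4 and 63.6 FPKM in FFC, against 95.7, 22.8, 38.3 and 117 in FF. The lowest library was FFC 1, where Apoc1, Apoc2 and Abca1 were at their highest. Means were 35.0 ± 25.7 FPKM in FFC and 68.4 ± 45.0 in FF (SD, n = 4 each). The log2 difference was -1.07 ± 0.81 (SE), -0.46 without FFC 1 and -1.18 without FF 2 and FF 4.

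**Figure D3:**
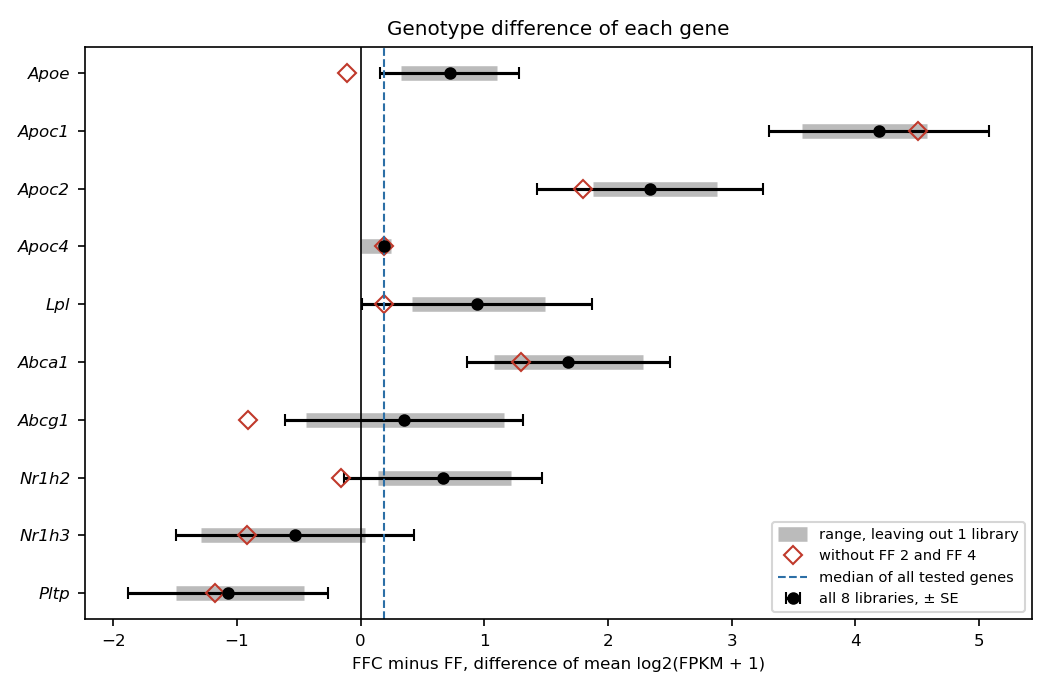
FFC minus FF difference of mean log2(FPKM + 1) for each gene (black points with SE; Apoc4 was not tested and has none), with the range when 1 library is left out (grey) and the value without FF 2 and FF 4 (diamonds); the dashed line is the median of all tested genes, 0.19. Apoe, Abcg1 and Nr1h2 cross 0 without FF 2 and FF 4, whereas Apoc1, Apoc2 and Abca1 are then at 1.30 or more.

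Counted together, 8 of the 10 genes had a higher mean log2 value in FFC, where 56.7% of all tested genes did. The 8 include Apoc4, which was not tested and was higher only through FFC 3 (0.681 FPKM). Without FF 2 and FF 4 it was 5 of 10 (Apoc1, Apoc2, Apoc4, Lpl and Abca1), where 52.7% of all tested genes did. The median difference of all tested genes was 0.19 as deposited and 0.03 after upper-quartile or quantile scaling. Relative to it, Apoc1, Apoc2 and Abca1 stood at 4.00, 2.15 and 1.49, Lpl, Apoe and Nr1h2 at 0.75, 0.54 and 0.49, Abcg1 at 0.17, and Nr1h3 and Pltp at -0.71 and -1.26. After either scaling each gene kept the sign of its difference. The library names carry a month, November or December, that is spread unevenly over the genotypes (November in FFC 1 and in FF 1 to FF 3). Within November the difference of FFC 1 from 3 FF libraries was 6.40 for Apoc1, 3.52 for Apoc2 and 3.26 for Abca1, and within December that of 3 FFC libraries from FF 4 was 2.51, 2.42 and 0.22. For Apoe the within-month values were 0.73 in November and 1.18 in December. Lpl (-0.68 and 1.43) and Nr1h2 (-0.60 and 1.51) differed in sign between the months, while Pltp (-2.55 and -1.50) did not. With month as a covariate in the fit the differences were 4.46 for Apoc1, 0.95 for Apoe and -2.03 for Pltp.

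By mean FPKM over the 8 libraries, Apoe (2681) was followed by Abca1 (53.0), Pltp (51.7), Apoc1 (47.2), Nr1h2 (38.6), Abcg1 (12.4), Lpl (8.44), Apoc2 (4.63), Nr1h3 (2.78) and Apoc4 (0.0851). Apoe was above the next gene, Abca1, in 8 of 8 libraries, by a mean of 5.93 log2 units (SD 1.18). Most neighbours further down the order were not separated beyond their spread between libraries: Abca1 and Pltp differed by -0.12 (SD 2.18) and Pltp and Apoc1 by 1.37 (SD 3.31), on the log2(FPKM + 1) scale. The exception was Nr1h2, which exceeded Abcg1 in 7 of 8 libraries, by 1.67 (SD 1.29).

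The members did not share 1 profile over the libraries. Likeness was measured as the mean absolute difference of log2(FPKM + 1), after centring each gene on its mean over the 8 libraries, so that a smaller value means more alike. Among the 36 pairs of the 9 tested members, Apoe and Nr1h2 were the most alike (0.465) and Apoc1 and Pltp the least (2.63). Apoe and Apoc1, neighbours on the chromosome, were 1.74 apart, while Apoc1 and Apoc2 were 1.24 apart.

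**Figure D4:**
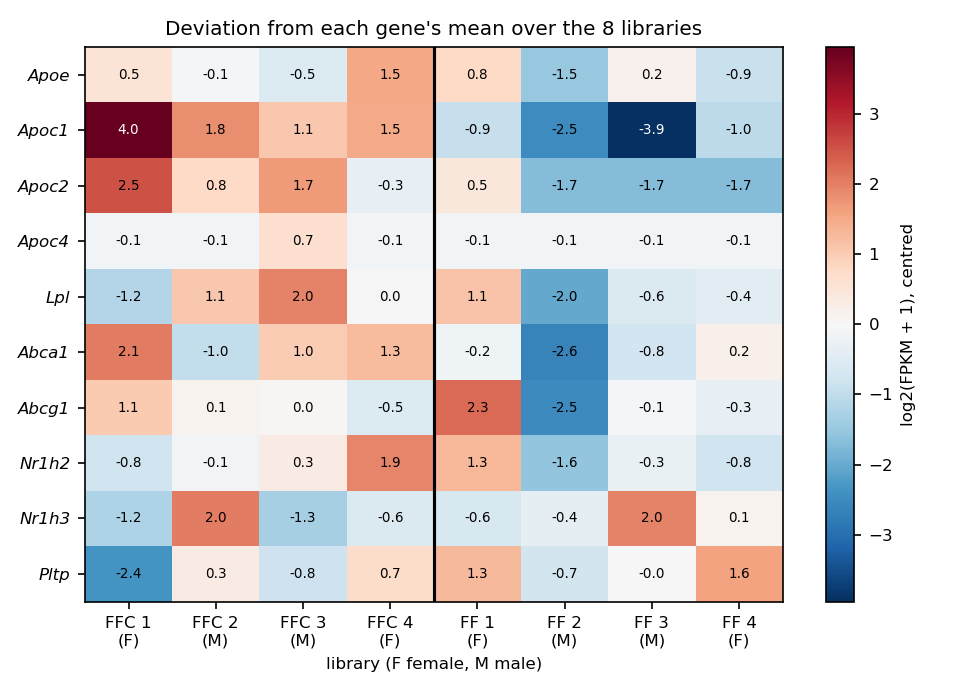
Deviation of each gene from its own mean over the 8 libraries, in log2(FPKM + 1), with FFC on the left and FF on the right of the black line. Apoc1 is above its mean in each FFC library and below it in each FF library, FF 2 is below the mean for each gene, and FFC 1 combines the highest Apoc1, Apoc2 and Abca1 with the lowest Pltp.

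Among 8421 candidate genes (mean FPKM of 5 or more, predicted genes and small RNAs left out by symbol), those most alike Apoe included the ribosomal protein genes Rps28 (0.178), Rpl36 (0.191), Rpl41 (0.205) and Rps15 (0.209), against a median of 1.07. Rps28 had 769, 493, 398 and 1287 FPKM in FFC, against 898, 287, 652 and 271 in FF. Like Apoe, it was highest in FFC 4, followed by FF 1 and FFC 1; its lowest library was FF 4, where that of Apoe was FF 2. Of the 20 nearest genes 15 encode ribosomal proteins, and of the 50 nearest 24, out of 76 such genes among the candidates. The microglia adaptor Tyrobp came 33rd (0.281) and Nr1h2 296th. The part of these genes in the genotype difference of Apoe was not tested.

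**Figure D5:**
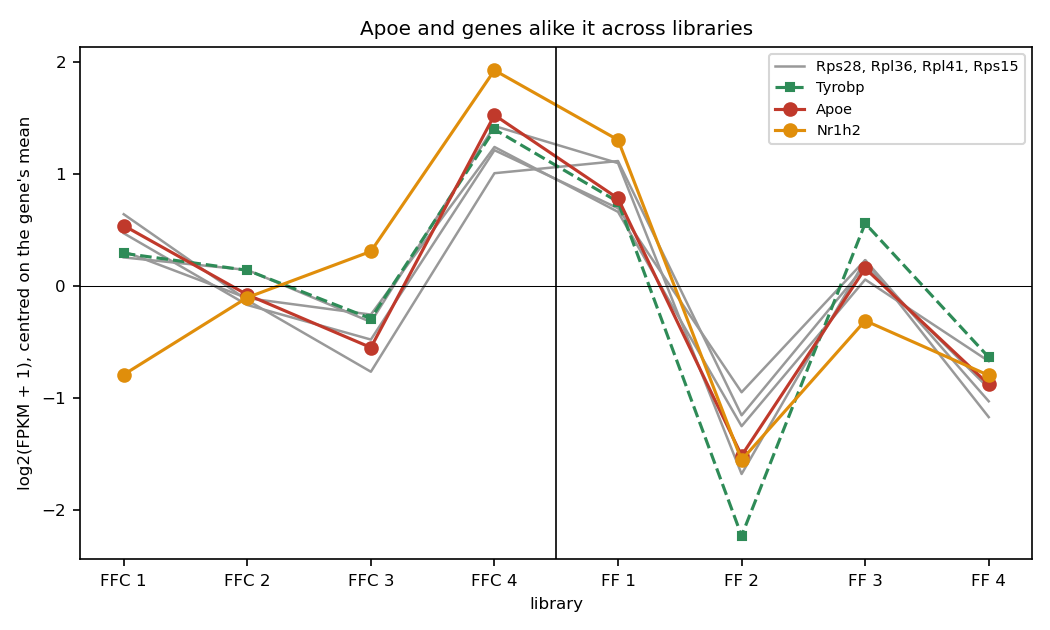
Apoe (red), Nr1h2 (orange), the microglia marker Tyrobp (green) and the ribosomal protein genes Rps28, Rpl36, Rpl41 and Rps15 (grey) over the 4 FFC and 4 FF libraries, each as log2(FPKM + 1) centred on its mean. Apoe and Rps28 are both highest in FFC 4, and Apoe is lowest in FF 2.

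Nearest to Apoc1 were Zfp511 (0.703), BC100451 (0.894), Tmem123 (0.904), Olfr111 (0.927) and H2-Q6 (0.927), against a median of 2.06. Of the members, Abca1 came closest to Apoc1, at place 177 (1.29), and Apoe took place 1714. Zfp511 had 36.6, 4.69, 10.7 and 10.4 FPKM in FFC, against 1.37, 0, 0.0609 and 0.457 in FF, where FF 2 is listed at 0. H2-Q6, a class I gene with near-identical copies that can share its reads, had 81.2, 59.2, 123 and 74.5 FPKM in FFC, against 20.9, 4.79, 9.02 and 14.9 in FF. These genes too have higher values in FFC, as follows from resembling Apoc1.

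Sex was not used to list the genes and could be tested. Over the 17753 genes limma, with genotype as a covariate, called 0 between males and females (0%; 709 at an unadjusted p under 0.05). The smallest limma adjusted p was 0.152, and 0 of the 9 tested members passed. The Y-linked Eif2s3y was not called either, with 17.2 to 113 FPKM in the libraries labelled male and 0 to 1.92 in those labelled female. The test thus missed a known sex difference, and the absence of calls does not show that the members are alike in both sexes. Abca1 had 28.5 ± 29.4 FPKM in males and 77.4 ± 54.7 in females (SD, n = 4 each), with a log2 difference of -1.69 ± 0.71 (SE; limma adjusted p = 0.953) that was -1.65 within FFC and -1.73 within FF. Apoc1 ranged from 0 to 53.7 FPKM in males and from 6.41 to 235 in females, with a difference of -1.75 ± 0.79 (SE; limma adjusted p = 0.953) that was -1.27 within FFC and -2.24 within FF. Both sexes overlapped for each of these genes. For Apoe the means were 1712 ± 739 FPKM in males and 3649 ± 2131 in females, with a log2 difference of -0.99 ± 0.50 (SE; limma adjusted p = 0.953). Among the other members Apoc2, Abcg1, Nr1h2 and Pltp were lower and Lpl and Nr1h3 higher in males, with limma adjusted p of at least 0.953.

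The interaction of genotype and sex was called for 0 genes (0%; 567 at an unadjusted p under 0.05 in limma). Lpl had the largest one among the members. In males it had 12.9 and 25.1 FPKM in FFC, against 0.653 and 3.50 in FF, and in females 1.98 and 5.83 FPKM in FFC, against 13.6 and 4.03 in FF. The FFC minus FF difference was 2.80 in males and -0.93 in females, an interaction of 3.73 ± 1.69 (SE) that did not pass (limma adjusted p = 1). For Apoe the same differences were 0.36 and 1.08, for Apoc1 4.67 and 3.70, and for Abca1 1.72 and 1.64.

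Genes around the members were read from lists chosen with earlier results of these data known, and limma called 0 of their members between the genotypes, as it called 0 of all genes. Genes without overlap in these lists stand beside 3.05% of all tested genes with every FFC library above every FF library. For 1.29% every FFC library was below. Counts of higher genes and list medians stand beside 56.7% of all tested genes higher in FFC, with a median of 0.19. Without FF 2 and FF 4 this background was 52.7%, with a median of 0.08. Where mean FPKM was 5 or more, 64.5% were higher, with a median of 0.38. Whether any list departs from this background was not tested. Among partners and coregulators of the liver X receptors, 8 of 9 tested genes had a higher mean in FFC and 1 a lower one (median log2 difference 0.80; 0.51 without FF 2 and FF 4). The corepressor Ncor1 had 189 ± 42.7 FPKM in FFC and 166 ± 69.3 in FF, and the coactivators Ep300 and Ncoa3 had 50.3 ± 11.9 and 57.0 ± 35.4 FPKM in FFC, against 39.5 ± 8.97 and 28.0 ± 8.71 in FF (SD, n = 4 each). Rxra, the partner receptor, was the lower one, with 2.67, 28.6, 15.4 and 21.8 FPKM in FFC, against 408, 217, 1.25 and 1.29 in FF. Rxra thus lay both highest and lowest in FF.

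Other known targets of the receptors were higher in FFC in 12 of 15 tested cases and lower in 3 (median 0.37; 0.05 without FF 2 and FF 4). Mylip, a ubiquitin ligase that degrades the LDL receptor, had 33.9, 23.0, 45.9 and 37.0 FPKM in FFC, against 7.39, 2.64, 18.8 and 3.03 in FF, and was the 1 of 15 without overlap (3.05% of all tested genes in this direction; limma adjusted p = 0.652). The phospholipid enzyme Lpcat3 had 99.0 ± 41.2 FPKM in FFC and 115 ± 101 in FF. The phagocytic receptor Mertk had 93.7 ± 26.2 FPKM in FFC and 65.2 ± 20.6 in FF, and the lipogenic factor Srebf1 22.9 ± 8.92 in FFC and 35.3 ± 37.2 in FF (SD, n = 4 each). Lpcat3 and Srebf1 had a higher mean in FFC only on the log2 scale (by 0.13 and 0.06). Among oxysterol and sterol transport genes 13 of 13 had a higher mean in FFC (median 0.76; 0.38 without FF 2 and FF 4), with overlap in each. Stard3 had 133 ± 56.0 FPKM in FFC and 99.0 ± 100 in FF. The lysosomal sterol carriers Npc2 and Npc1 had 58.1 ± 29.5 and 36.3 ± 14.8 FPKM in FFC, against 35.8 ± 20.3 and 28.1 ± 11.7 in FF, and the cholesteryl ester hydrolase Nceh1 had 42.9 ± 26.0 in FFC and 38.1 ± 45.2 in FF.

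Of lipoprotein receptors and lipase partners, 11 of 16 had a higher mean in FFC and 5 a lower one (median 0.40; -0.05 without FF 2 and FF 4). Trem2, a lipid-sensing receptor that binds Apoe, had 483 ± 254 FPKM in FFC and 314 ± 193 in FF, and the endocytic receptor Lrp1 had 121 ± 24.1 in FFC and 120 ± 139 in FF. Sort1 had 51.3 ± 12.7 FPKM in FFC and 47.2 ± 45.4 in FF, and Cd36 45.4 ± 44.6 in FFC and 34.9 ± 16.5 in FF. Lmf1, which matures the lipase and was named after its values were seen, had no overlap, with 36.1 to 66.9 FPKM in FFC and 1.74 to 32.9 in FF. Lipid droplet genes were higher in 7 of 11 cases and lower in 4 (median 0.46; -0.04 without FF 2 and FF 4). There Plin2, the droplet coat protein, had 23.6 ± 31.4 FPKM in FFC and 34.7 ± 27.2 in FF, Dgat1 32.9 ± 6.55 in FFC and 29.6 ± 21.8 in FF, Lipe 39.3 ± 10.4 in FFC and 18.1 ± 27.7 in FF, and Fabp5 42.6 ± 51.5 in FFC and 4.99 ± 5.34 in FF (SD, n = 4 each). The 1 gene of that list without overlap, Dgat2, named after its values were seen, had 1.11 to 3.86 FPKM in FFC and 0.0938 to 0.363 in FF.

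Other genes that carry an apolipoprotein name, not all of which encode an apolipoprotein, were mostly absent or low. Of these, 8 of 19 passed the filter, of which 3 had a higher and 5 a lower mean in FFC (median -0.34). Clu, a secreted chaperone also called apolipoprotein J, had 0.887, 1.84, 3.45 and 0.0124 FPKM in FFC, against 127, 36.3, 23.4 and 61.9 in FF. Apoo, a protein of mitochondrial cristae despite its name, had 47.0, 5.29, 10.7 and 7.99 FPKM in FFC, against 0.0258, 0.0797, 1.37 and 0.476 in FF. Of the 8, Clu had every FFC library below every FF library (1.29% of all tested genes; limma adjusted p = 0.382) and Apoo every one above (3.05% of all tested genes; limma adjusted p = 0.555). Apoa1bp, named as a binding protein, had 16.9 ± 18.2 FPKM in FFC and 9.59 ± 14.8 in FF. Apobr, named as a receptor, had 4.82 ± 2.59 in FFC and 12.7 ± 9.55 in FF (SD, n = 4 each).

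Markers of other cells that the gate could hold ranged widely. The macrophage marker Mrc1 averaged 139 FPKM over the 8 libraries, more than the microglia markers Sall1 (85.8) and Cx3cr1 (74.7). The summed FPKM was 59.1 to 308 in FFC and 145 to 525 in FF for 6 markers of border-associated and infiltrating macrophages (F13a1, without a value in FFC 2 and FF 3, is not in the sum), 10.44 to 50.55 in FFC and 13.04 to 41.94 in FF for oligodendrocytes, and 0.439 to 0.544 in FFC and 0.0254 to 2.30 in FF for neurons. For mural cells and fibroblasts it was 6.76 to 17.4 in FFC and 12.8 to 86.9 in FF, for endothelium 4.50 to 16.0 in FFC and 15.0 to 43.6 in FF, for erythroid cells 24.4 to 59.5 in FFC and 52.1 to 208 in FF, and for liver genes 1.85 to 7.75 in FFC and 1.56 to 15.3 in FF. By mean log2 value, 2 of 6 macrophage markers, 1 of 6 mural, 1 of 5 endothelial and 1 of 5 erythroid markers were higher in FFC, against 4 of 4 oligodendrocyte, 3 of 6 astrocyte and 8 of 10 microglia markers. Of all tested genes, 56.7% were higher. The median log2 difference was 0.67 for microglia markers, and -0.06 without FF 2 and FF 4. It was 0.49 and then 0.58 for oligodendrocyte markers, and -0.49 and then -1.06 for macrophage markers. Larger medians were those of endothelium (-1.16 and then -0.59), erythroid cells (-1.15 and then -1.39) and mural cells and fibroblasts (-1.02 and then -0.87). Astrocyte markers stood at -0.04 and then -0.23, and liver genes at -0.27 and then 0.33. The part of these cells in the values of Apoe, Apoc1 or Pltp was not tested.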

How the data were processed

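RNA from microglia sorted from mouse optic nerve was sequenced in 8 libraries, 4 FFC and 4 FF. The file used is the table of FPKM per gene that the authors deposited, which corrects reads for transcript length and library size and holds 37447 genes. Tools listed, per the submitters' processing notes, are Cufflinks 2.0.2, Bowtie2 2.0.0, TopHat2 2.0.4 and CASAVA 1.8.2, without role or order, and the build is mm9; no source used here names the annotation. Per the labels' protocols, cDNA was made with the Ovation RNA-Seq method; such amplification is known to distort single transcripts, and its effect here was not tested. Starts in the table count from 0, since 21680 genes then have the length given in GENCODE M21 (420 otherwise), and are printed counted from 1. Of the genes, 447 with a missing value were left out.

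Values were taken as log2(FPKM + 1), which understates changes of low genes. Genes whose mean FPKM was 1 or more (17753) were tested with limma 3.58.1 in R 4.3.3, two-sided, its variance prior following mean expression, at a Benjamini-Hochberg adjusted p of 0.05 over all of them; the fit was checked on simulated data. Python 3.11.15, numpy 2.4.6, pandas 2.3.3 and matplotlib 3.10.9 did the rest. The 10 genes and all lists were chosen with earlier results of these data known. Named besides the members were, by rule, the 5 genes most alike Apoe and Apoc1, neighbours within 100 kb and, in each list, the 4 genes with the highest mean FPKM; some results are not reported here. Promoter windows are from RefSeq (GRCm38.p6), and their coordinates were not mixed with those of mm9.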

Additional observations from a re-analysis of the deposited data

Results flagged for a closer look

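In the 4 FF libraries Apoc2 was measured in FF 1 alone (3.48 FPKM) and listed at 0 in the other 3, so the gap of FF 1 to the nearest library was the whole range of the group (ratio 1.0 on the log2(FPKM + 1) scale). In the 4 FFC libraries Apoc4 had 0.681 FPKM in FFC 3 and practically nothing in the other 3 (ratio 1.0). Chance alone flags about 1 in 20 groups of 4, and 19 groups were examined. Both ratios rest on values near 0.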

How the results depend on the processing

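Of the other settings, 18 were run for the genotype difference of each member. Apoc1, Apoc2, Lpl, Abca1 and Pltp kept their sign in each of them, whereas Apoe, Abcg1 and Nr1h2 changed sign without FF 2 and FF 4 (-0.11, -0.91 and -0.16), Abcg1 also without FF 2 (-0.44), and Nr1h3 without FF 3 (0.04); Apoc4 was at 0.00 without FFC 3. A changed expression filter, sex as a covariate and the replicate number as a block leave each member's difference as it is (0.72 for Apoe), so those settings could not change a sign. The number of members with a higher mean in FFC, 8, was 5 without FF 2 and FF 4. Leaving out 1 library each gave 3.57 to 4.58 for Apoc1, 0.33 to 1.10 for Apoe (lowest without FFC 4) and 1.08 to 2.28 for Abca1. With a pseudocount of 0.1 or 5, Apoc1 had 5.23 or 3.08 and Apoc2 4.64 or 1.08. For sex, where the main values were -0.48 for Apoc2 and 0.21 for Lpl, leaving out 1 library each gave -1.17 to 0.07 for Apoc2 (positive without FF 1) and -0.40 to 0.89 for Lpl (-0.40 without FFC 1 and -0.34 without FFC 3). Genes called between FFC and FF numbered 0 to 2 when 1 library was left out (1 each without FFC 4, FF 1 or FF 3, 2 without FF 4) and 4 without FF 2 and FF 4. Genes called between the sexes numbered 0 to 4 (4 without FF 2 and 3 without FF 4), and those called for the interaction 0 to 1, with 6 in the absence of an expression filter; none of them was a member. The causes were not tested. With the replicate number as a block, 0 genes were called and 1014 had an unadjusted p under 0.05. Deviations of libraries with the same number correlated between -0.052 and 0.034, and those with different numbers between -0.118 and 0.118. These values give no sign that the number pairs the libraries, but 4 libraries per group are too few to exclude a weak pairing. A block for the sex test was not run because each number holds 1 sex. The depth of the libraries is unknown, so what it limits cannot be given.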
